A study of Mus musculus with 4 samples.

Results

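The major urinary protein (Mup) genes Mup10, Mup3 and Mup5 were followed in livers of mice with a liver-specific knockout of Baf60a (Baf60a LKO) and of wild-type (WT) mice. The genes, 3 of the 18193 with a value, were chosen by their measured difference between Baf60a LKO and WT livers in these same arrays, and all probe sets annotated to them on the Affymetrix mouse array were taken. There were 4 such probe sets among 45101, namely 1430893_at for Mup10, 1427631_x_at and 1427249_x_at for Mup3, and 1426166_at for Mup5. Each of the 4 carried a single symbol in the annotation, and 0 were annotated to several Mup genes. The ending _x_at of both Mup3 probe sets nevertheless marks probes that can also match other transcripts, so their values may include other Mup copies. The Mup genes with no probe set named for them are not analysed here. Both genotypes were C57BL/6 mice placed on a high-fat diet at 6 weeks of age and kept on it for 10 weeks, with liver taken after an overnight fast. Baf60a, also called Smarcd1, encodes an accessory subunit of SWI/SNF, a complex that moves nucleosomes. There were 2 arrays for Baf60a LKO and 2 for WT, each from its own pool of RNA. The number of mice in a pool, their sex and the promoter that drives the deletion are not given in the sources used here.

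Major urinary proteins are small secreted lipocalins, proteins with a barrel fold that binds hydrophobic ligands. Mouse hepatocytes secrete them into the blood and they pass into the urine, where they carry and slowly release volatile pheromones. Their hepatic transcription is known to be higher in males than in females and to depend on growth hormone, whose receptor acts through JAK2 and STAT5, and on glucocorticoids and thyroid hormone. The genes lie as a tandem array of copies on mouse chromosome 4, closely alike in its middle, so a probe designed for one copy may read others.

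Liver identity was clear on all arrays, with Alb, the serum albumin gene, at 14.13 and 14.17 in Baf60a LKO and at 14.05 and 14.08 in WT on the log2 scale. Array medians were 4.19 to 4.27. WT replicate 1 stood a little apart: across probe sets its correlation with any other array was 0.987 to 0.991, while the remaining pairs reached 0.993 to 0.996. Probe sets are not independent of each other. The targeted gene Smarcd1 stood at 5.34 and 5.30 in Baf60a LKO and at 5.62 and 5.88 in WT on its brighter probe set, a difference of -0.43 ± 0.14 (SE) that did not pass (limma, adjusted p = 0.564). Its place relative to the deletion is not given, and the genotype is therefore taken from the labels alone. Background was gauged from 27 probe sets for Bacillus subtilis control transcripts, whose median per array was 2.27 to 2.33 and whose 95th percentile was 2.63 to 2.86.

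The regions just upstream of the RefSeq gene starts are shown for Mup10 and Mup3, because all 3 genes lay lower together. Both come from RefSeq on build GRCm38.p6 and lie on the minus strand, at chr4:60582156-60582405 for Mup10 and chr4:62087318-62087567 for Mup3. Each is 250 bases long, written 5′ to 3′ and ending at the base before the start, with the letters TATATAA in capitals.
Mup10: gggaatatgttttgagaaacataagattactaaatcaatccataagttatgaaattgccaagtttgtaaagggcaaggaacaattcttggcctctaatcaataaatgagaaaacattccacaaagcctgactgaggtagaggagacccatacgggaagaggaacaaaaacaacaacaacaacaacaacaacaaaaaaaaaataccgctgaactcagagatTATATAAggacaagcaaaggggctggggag
Mup3: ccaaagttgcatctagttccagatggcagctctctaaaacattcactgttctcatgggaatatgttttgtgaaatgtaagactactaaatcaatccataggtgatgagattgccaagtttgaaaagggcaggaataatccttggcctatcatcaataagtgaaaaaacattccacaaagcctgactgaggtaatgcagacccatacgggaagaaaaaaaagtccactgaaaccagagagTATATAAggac
The TATATAA stretch began 30 bases before the annotated start of Mup10 and 11 bases before that of Mup3. On either strand these letters occurred in 3.04% of the 32851 upstream windows of the same length in the RefSeq table and in 11 of its 14 Mup windows. The Mup windows are copies of one another and do not count as independent cases. The letters TTCNNNGAA, the palindrome bound by STAT proteins, occurred on either strand in 7.02% of all windows and in 0 of the 14 Mup windows. No match says only that these letters are not in these 250 bases. By global alignment, in which gaps at the ends of a window count as columns, the Mup10 and Mup3 windows were identical in 56.7% of 305 columns. As TATATAA lies 30 and 11 bases before their starts, these windows do not cover matching stretches. The share therefore depends on the annotated starts and is no measure of how far the promoters differ. The Mup10 window was 93.3% identical to that of Mup9, its closest among the 13 other Mup windows, over 254 columns. The Mup3 window was 89.5% identical to that of Mup21 over 256 columns. In the RefSeq order of the 22 Mup genes on chromosome 4, Mup10 was at place 8, Mup5 at place 19 and Mup3 at place 21.

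All 3 genes lay lower in Baf60a LKO livers than in WT livers, furthest for Mup10. Since this contrast chose the genes, its values are a description and no test is given for them. Values are the deposited log2 values after RMA, in which quantile normalization makes the arrays' distributions alike and each probe set's probes become 1 value. Mup10, one of the closely alike genes in the middle of the array of copies, stood at 4.64 and 4.70 in Baf60a LKO and at 9.24 and 9.29 in WT. The pools of each genotype almost coincided, and the groups were separated by 4.54 at their closest. The group means were 4.67 ± 0.04 in Baf60a LKO and 9.27 ± 0.04 in WT (SD, n = 2 each), a difference of -4.59 or 24.2-fold. The Baf60a LKO mean was 2.00 above the 95th percentile of the bacterial controls and the WT mean 6.52 above it.

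Mup3, which encodes a MUP isoform made in liver, was read by a bright and a dim probe set. The bright one, 1427631_x_at, stood at 9.97 and 10.52 in Baf60a LKO and at 13.55 and 13.40 in WT. Both Baf60a LKO pools were low, replicate 1 more than replicate 2, and the groups were separated by 2.87 at their closest. The means were 10.25 ± 0.39 in Baf60a LKO and 13.47 ± 0.11 in WT (SD, n = 2 each), a difference of -3.22 or 9.34-fold. Even the lower mean stood 7.58 above the 95th percentile of the bacterial controls. The highest value of any probe set was 14.13 and 14.17 on the Baf60a LKO arrays and 14.32 and 14.31 on the WT arrays, so the WT values lay near the top of the scale. Whether this lessened the difference was not tested.

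The dim Mup3 probe set, 1427249_x_at, stood at 2.28 and 2.31 in Baf60a LKO and at 2.92 and 3.64 in WT. The Baf60a LKO values were at the level of the bacterial controls, and the WT mean was 0.54 above their 95th percentile. The difference was -0.99, and no fold is given because the Baf60a LKO values do not stand clear of background.

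Mup5, whose product is known from exocrine glands as well as liver, stood at 3.70 and 4.15 in Baf60a LKO and at 6.74 and 6.19 in WT. Pools of both genotypes were more scattered than for Mup10, but the groups were separated by 2.03 at their closest. The means were 3.93 ± 0.32 in Baf60a LKO and 6.46 ± 0.39 in WT (SD, n = 2 each), a difference of -2.53 or 5.80-fold. The Baf60a LKO mean was 1.26 above the 95th percentile of the bacterial controls and the WT mean 3.72 above it.

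**Figure D1:**
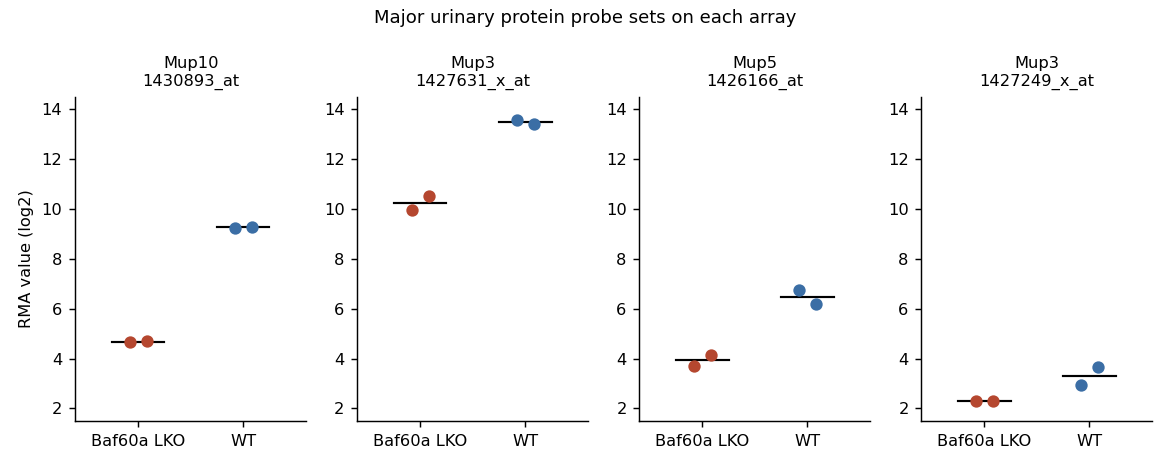
Deposited RMA values (log2) of the 4 Mup probe sets on each array, with Baf60a LKO on the left and WT on the right of each panel. Points are single arrays and lines are the means of 2 arrays, and both Baf60a LKO arrays lie below both WT arrays in each panel.

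Both Baf60a LKO arrays lay below both WT arrays for 4 of 4 member probe sets, where 19.4% of all 45037 tested probe sets show that order. Since the contrast chose the genes, nothing is read from this count. Among all tested probe sets, ranked from the most negative difference, Mup10 was at place 6, the bright Mup3 probe set at 20, Mup5 at 32 and the dim Mup3 probe set at 139. Of the 45037, 42 (0.0933%) were lower by 2 or more, and the 1st percentile was -0.60. By limma at adjusted p under 0.05, 84 of the 45037 passed (0.187%), of which 54 fell (0.12%) and 30 rose (0.0666%). With array medians subtracted the split was 68 lower and 78 higher, after quantile normalization 72 and 67, and after cyclic loess 83 and 79. As the same contrast chose the Mup genes, these shares are given as background only.

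**Figure D2:**
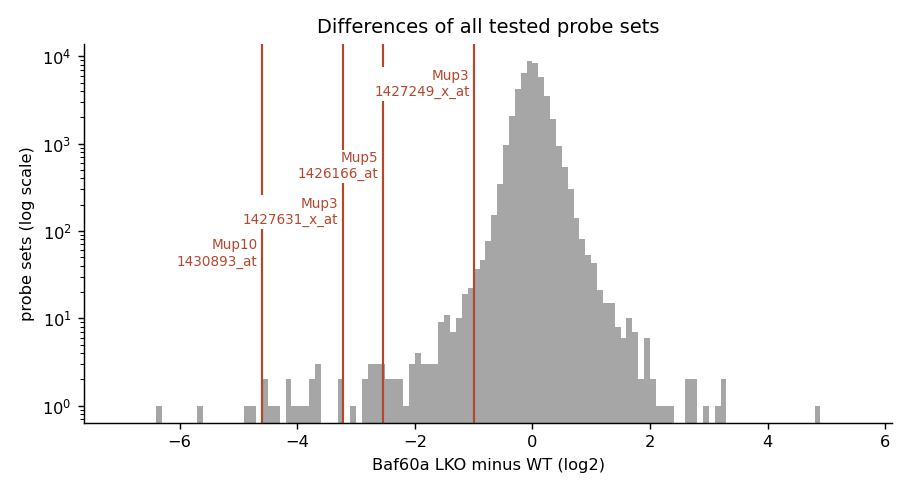
Histogram of the Baf60a LKO minus WT difference (log2) of 45037 tested probe sets, with counts on a log axis and lines at the 4 Mup probe sets. The lines at -4.59, -3.22, -2.53 and -0.99 all lie in the negative tail, beyond the 1st percentile at -0.60.

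The spread between pools of one genotype was unlike among the members. The genes were chosen by the difference between genotypes, and whether that choice also drew on this spread is not known. For Mup10 the pools differed by 0.05 in Baf60a LKO and by 0.05 in WT, against medians over all probe sets of 0.12 and 0.20. For the bright Mup3 probe set they differed by 0.55 in Baf60a LKO, more than for 98.4% of probe sets, and by 0.15 in WT. For Mup5 they differed by 0.45 in Baf60a LKO and by 0.56 in WT, more than for 96.0% and 91.0% of probe sets. For the dim Mup3 probe set they differed by 0.03 in Baf60a LKO and by 0.72 in WT, the WT gap being larger than for 96.7% of probe sets. In Baf60a LKO replicate 2 was the higher pool for each member, while in WT replicate 1 was higher for Mup5 and the bright Mup3 probe set and replicate 2 for Mup10 and the dim Mup3 probe set. The 4 single-pool differences ran from -4.65 to -4.54 for Mup10, from -3.58 to -2.87 for the bright Mup3 probe set, from -3.04 to -2.03 for Mup5, and from -1.36 to -0.61 for the dim Mup3 probe set. The range of Mup10 overlapped none of the other 3, while those of the bright Mup3 probe set and Mup5 overlapped.

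The genes that border the Mup array on chromosome 4 showed no difference of that size. The 5 nearest measured genes on each side were Hsdl2, E130308A19Rik, Inip, Snx30 and Slc46a2 before it and Zfp37, Slc31a2, Fkbp15, Slc31a1 and Cdc26 after it. Of these 10, 0 passed by limma at adjusted p under 0.05 over all probe sets and 1 had an unadjusted p under 0.05, where 0.319% of 18193 genes passed (0.203% falling, 0.115% rising) and 9.49% had such a p. Differences ran from -0.35 to 0.42 with a median of 0.08, beside a median of 0.00 over all genes. Hsdl2, a hydroxysteroid dehydrogenase-like gene, stood at 10.33 and 10.19 in Baf60a LKO and at 9.73 and 9.95 in WT (0.42 ± 0.14, SE, or 0.25 with its probe sets averaged). Slc31a1, a copper uptake transporter gene, stood at 8.66 and 8.90 in Baf60a LKO and at 9.09 and 9.17 in WT (-0.35 ± 0.14, SE, or -0.11 with its probe sets averaged). The measured genes nearest to the Mup genes, Slc46a2 and Zfp37, were close to background in both genotypes, with means of 2.97 and 2.67 in Baf60a LKO and of 2.92 and 2.62 in WT, so these arrays say little of them.

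**Figure D3:**
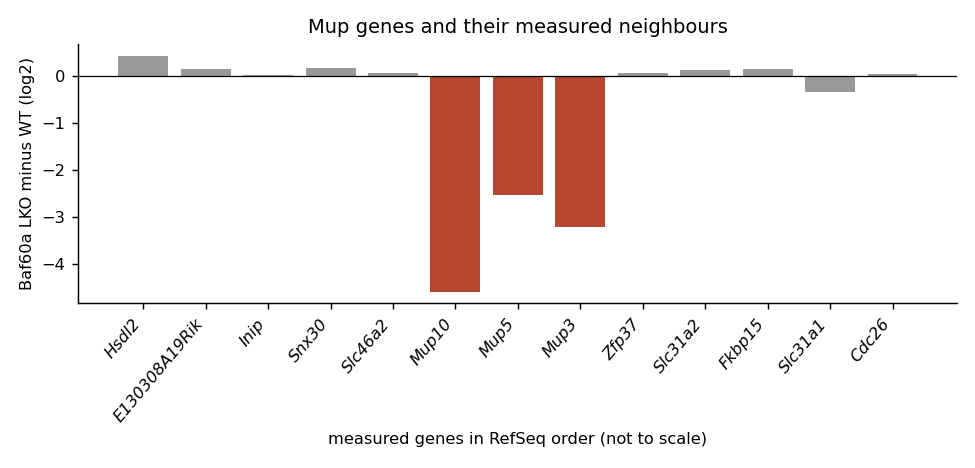
Baf60a LKO minus WT difference (log2) of the measured genes around and within the Mup array, in RefSeq order and not to scale. Bars start at 0, with Mup genes in red between -4.59 and -2.53 and the 10 neighbours in grey between -0.35 and 0.42.

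Some other genes that male mouse liver expresses more than female liver, the pattern known for Mup genes, were lower in Baf60a LKO as well. Of the 14 measured, 3 fell, 0 rose and 11 did not pass, beside 0.203% of all genes that fell, and the list median was -0.84. The list was chosen with earlier results of these data known, so the count is a description and nothing is read from it. Hsd3b5, a steroid dehydrogenase gene, stood at 3.68 and 4.75 in Baf60a LKO and at 10.96 and 10.12 in WT (-6.33 ± 0.42, SE, limma adjusted p = 0.0144). Serpina12, which encodes vaspin, stood at 5.34 and 5.44 in Baf60a LKO and at 10.20 and 9.77 in WT (-4.60 ± 0.18, limma adjusted p = 0.00286), and with its probe sets averaged the difference was -2.65 (adjusted p = 0.00376). Serpina4-ps1, a serpin locus, fell by 4.02 (limma, adjusted p = 0.0210). Each of these had both Baf60a LKO arrays below both WT arrays, an order that 19.4% of all tested probe sets show. Without 1 array the difference ran from -6.86 to -5.79 for Hsd3b5 and from -4.81 to -4.38 for Serpina12. For Serpina4-ps1 it ran from -4.42 to -3.63.

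Cyp7b1, an oxysterol hydroxylase gene, differed by -2.19 ± 0.24 and Cyp4a12a, a fatty acid hydroxylase gene, by -1.54 ± 0.16, both just short of the threshold (limma, adjusted p = 0.0573 and 0.0505). Elovl3, a fatty acid elongase gene, differed by -1.14 ± 0.20 and Slco1a1, an organic anion transporter gene, by -0.98 ± 0.18 (limma, adjusted p = 0.232 and 0.250). The other 7 members ran from -0.70 to 0.60. Among 12 measured genes known for higher expression in female liver, 0 passed by limma and 4 had an unadjusted p under 0.05, beside 0.319% and 9.49% of all genes. These 4 were Cyp2b9, lower in Baf60a LKO, and Hamp2, Cyp17a1 (0.64 ± 0.20, SE) and Acot3 (0.35 ± 0.12), higher in Baf60a LKO. Of the 12, 5 lay above 0 and 7 below. The median was -0.20, and 0.35 over the 7 genes in the brighter part of the probe sets. Cyp2b9, a cytochrome P450 gene, averaged 5.72 ± 1.03 in Baf60a LKO and 10.07 ± 1.19 in WT (SD, n = 2 each), with no overlap (-4.34 ± 0.67, SE, limma adjusted p = 0.171). Hamp2, a hepcidin gene, stood at 12.90 and 13.31 in Baf60a LKO and at 11.56 and 10.69 in WT, a difference of 1.98 ± 0.31 that was -0.14 on the probe set used when those ending in _x_at and _s_at were left out, and 0.92 with its probe sets averaged. Cyp2b13, a relative of Cyp2b9, and Hao2, a hydroxyacid oxidase gene, differed by -1.06 ± 0.64 and -0.97 ± 0.51, each with 1 high WT array, replicate 1. Without that array the differences were -0.0019 and -0.13, and without WT replicate 2 they were -2.12 and -1.82.

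Of 17 measured genes of the growth hormone pathway, 0 passed by limma and 2 had an unadjusted p under 0.05, beside 0.319% and 9.49% of all genes. At that share of calls a list this short would seldom hold one, so 0 calls say little for this or any other list. Below 0 lay 14 of the 17, beside 49.9% of all genes, and the median was -0.14. Ghr, the growth hormone receptor gene, averaged 12.22 ± 0.05 in Baf60a LKO and 12.28 ± 0.09 in WT (SD, n = 2 each). Stat5b, the transcription factor that growth hormone activates in liver, averaged 6.98 ± 0.12 in Baf60a LKO and 7.05 ± 0.10 in WT, and its relative Stat5a differed by -0.35 ± 0.14 (SE). Igf1, a target of the pathway and the main circulating growth factor gene, stood at 11.78 and 11.77 in Baf60a LKO and at 12.05 and 12.04 in WT (-0.27 ± 0.12, or -0.071 with its probe sets averaged). Igfbp1, in the list as the gene of an IGF binding protein, differed by -1.15 ± 0.25 (limma, adjusted p = 0.343).

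The feedback inhibitors Socs1 and Socs2 differed by -0.38 ± 0.17 and -0.02 ± 0.21 (SE). Bcl6, a repressor that shares sites with STAT5, stood at 7.05 and 6.00 in Baf60a LKO and at 5.98 and 7.45 in WT. Each genotype thus had a high and a low pool, and the groups overlapped. Cux2, a repressor known for higher expression in female liver, stood at 5.96 and 5.93 in Baf60a LKO and at 6.18 and 6.18 in WT (-0.24 ± 0.12). These are transcript levels and do not report hormone levels or STAT5 activity.

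Of 18 measured transcription factors and coregulators that hepatocytes use, 0 passed by limma and 4 had an unadjusted p under 0.05 (0.319% and 9.49% of all genes). The median was 0.02, and it was -0.054 after quantile normalization and -0.065 after cyclic loess. Hnf4a, a master regulator of hepatocyte genes, averaged 11.81 ± 0.04 in Baf60a LKO and 12.00 ± 0.01 in WT (SD, n = 2 each), and was higher by 0.36 on the probe set used without _x_at and _s_at probe sets. Zhx2 and Zbtb20, repressors of fetal liver genes, differed by -0.24 ± 0.12 and -0.13 ± 0.15 (SE). Zhx2 is also known from mouse strain studies as a regulator of Mup genes. The largest differences in the list were those of Onecut1 (-0.47 ± 0.15), Thrb, the thyroid hormone receptor beta gene (-0.46 ± 0.14), Prox1 (0.38 ± 0.20) and Foxa1 (-0.37 ± 0.15), none of which passed.

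Lipocalin genes outside the Mup array had a median of -0.02 (0.16 over the 10 in the brighter part of the probe sets), and 0 of 18 passed by limma, with 3 at an unadjusted p under 0.05, beside 0.319% and 9.49% of all genes. Orm2, an acute phase glycoprotein gene, stood at 9.62 and 11.34 in Baf60a LKO and at 7.03 and 7.72 in WT (3.11 ± 0.56, SE, limma adjusted p = 0.241). Lcn2, an iron siderophore carrier gene, differed by 1.29 ± 0.67 with overlapping groups, and by 0.27 to 2.31 without 1 array. Orm3 differed by -0.76 ± 0.47, and by -1.46 to -0.053 without 1 array. Both moved most when either Baf60a LKO array was left out. Apom, the gene of an HDL lipocalin, differed by 0.58 ± 0.12. Other abundant secreted proteins of hepatocytes also gave 0 calls among 18 measured genes by limma, with 1 at an unadjusted p under 0.05 beside the same shares of all genes, a median of 0.10 and differences from -0.13 to 0.55. The largest was that of Itih1, an inter-alpha-trypsin inhibitor gene, at 0.55 ± 0.13 (SE).

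**Figure D4:**
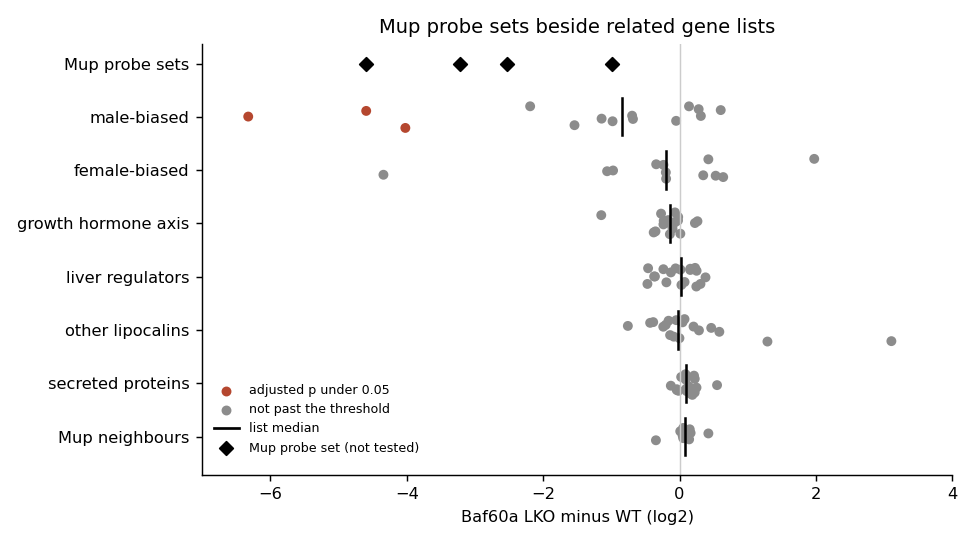
Baf60a LKO minus WT difference (log2) of the 4 Mup probe sets (diamonds, not tested) and of the members of 7 gene lists (points, each gene's brightest probe set), with bars at the list medians. Red points passed limma at adjusted p under 0.05, and these are the 3 male-biased genes Hsd3b5, Serpina12 and Serpina4-ps1.

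Marker lists of the cells in a liver gave 0 calls by limma, beside 0.319% of all genes. By limma, 4 of 7 cholangiocyte and 2 of 6 adipocyte markers had an unadjusted p under 0.05, beside 9.49% of all genes. Among hepatocyte, Kupffer cell and macrophage, endothelial and stellate markers 0 had such a p. In bulk liver, fewer cells of a type and less RNA per cell cannot be told apart. Hepatocyte markers had a median of 0.06 over 6 genes, those of Kupffer cells and macrophages 0.09 over 7, of endothelium -0.09 over 7 and of stellate cells -0.06 over 6. Summed on the linear scale, hepatocyte markers ranged from 68770 to 69338 in Baf60a LKO and from 66735 to 67748 in WT. Most of this sum came from Alb, Ttr and Apoa1, whose probe sets lie near the top of the scale, and Tat, a less bright marker that encodes a tyrosine-degrading enzyme, differed by -0.34 ± 0.15 (SE).

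Cholangiocyte markers lay higher in Baf60a LKO for 7 of 7 genes, where 49.9% of all genes lay lower, with a median of 0.45. Their summed linear level was 192.0 to 262 in Baf60a LKO, against 110.2 to 135 in WT. Cftr, with a difference of 0.01, was at background, with means of 2.10 in Baf60a LKO and 2.09 in WT. Pkhd1, Epcam and Cldn7, of the bile duct epithelium, led with 1.34 ± 0.30, 1.17 ± 0.21 and 0.89 ± 0.16 (SE), and with the probe sets of a gene averaged Epcam differed by 0.40. Adipocyte markers lay lower for 6 of 6 genes as deposited, beside 49.9% of all genes, with a median of -0.36. Adipoq, at background, was 0.013 after quantile normalization and 0.017 after cyclic loess. The summed level of the list was 4745 to 5380 in Baf60a LKO, against 11217 to 12236 in WT. Most of it came from Car3, a carbonic anhydrase gene that hepatocytes also express (-1.24 ± 0.14, limma adjusted p = 0.0568, or -2.34 and 0.00219 with its probe sets averaged). Cidec, a lipid droplet gene, differed by -1.11 ± 0.26, and by -0.72 without WT replicate 2. The defining adipocyte gene Adipoq was at the level of the bacterial controls, at 2.35 and 2.49 in Baf60a LKO and at 2.46 and 2.48 in WT. The part of these cell types in the Mup differences was not tested.

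The genes whose values over the 4 arrays were closest to those of each member, by the root mean square difference of log2 values after each was centred on its own mean, included receptors, transporters and metabolic enzymes. Closeness by this measure includes the genotype difference that chose the members, so it is a description. For Mup10 the closest was Nr1i3, which encodes the xenobiotic receptor CAR, at 0.113. Nr1i3 stood at 6.33 and 6.58 in Baf60a LKO and at 11.21 and 11.26 in WT. It was followed by Serpina12 at 0.174, Hsd17b6, a steroid dehydrogenase gene, at 0.183, Slco1a4, an organic anion transporter gene, at 0.440 and Serpina4-ps1 at 0.461. Mup10 itself was farther from the bright Mup3 probe set, at 0.712, and from Mup5, at 1.06.

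For the bright Mup3 probe set the closest genes were Sult5a1, a sulfotransferase gene, at 0.145, Scara5, a ferritin scavenger receptor gene, at 0.241, the cytochrome P450 gene Cyp2c54 at 0.270, Slco1a4 at 0.286 and Cyp2c50 at 0.299. For Mup5 they were Cyp7b1 at 0.232, Ces1g, a carboxylesterase gene, at 0.253, Scara5 at 0.294, Wfdc21 at 0.309 and Cyp4a14, a fatty acid hydroxylase gene, at 0.334, while the bright Mup3 probe set lay at 0.375 from Mup5. For the dim Mup3 probe set the closest were Cidec, Adgrg2, Cyp46a1, Meiob and S1pr5, at 0.0738 to 0.102.

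**Figure D5:**
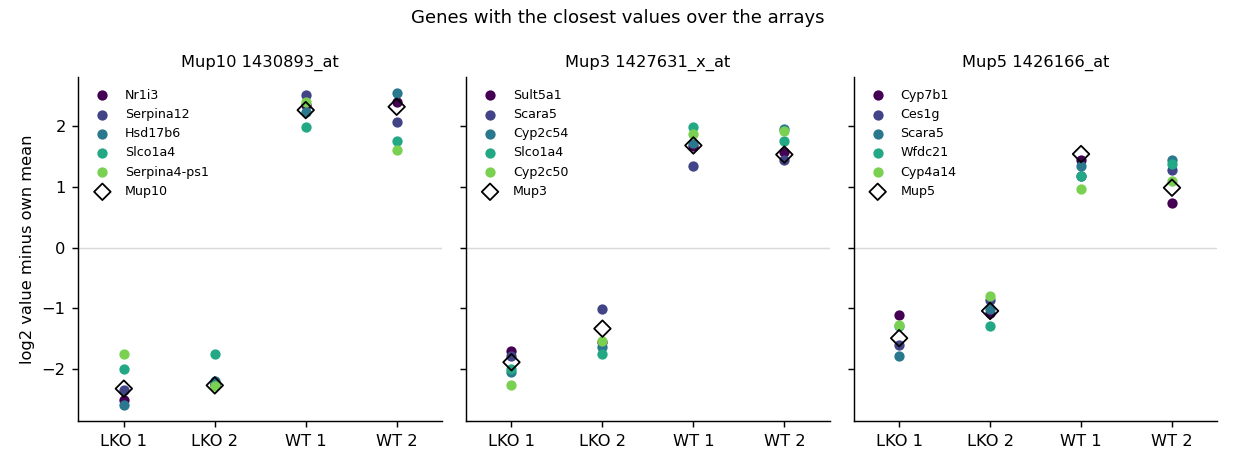
Log2 values of Mup10, the bright Mup3 probe set and Mup5 (open diamonds) and of their 5 closest genes (points) on each array, each gene centred on its own mean. The single arrays of both genotypes are shown, and the points of Nr1i3 lie closest to Mup10, at a root mean square difference of 0.113.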

How the data were processed

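Liver RNA pools were hybridised to 4 arrays, 2 of Baf60a LKO and 2 of WT, with groups taken from the sample labels. The authors deposited 1 log2 value per probe set and array (the scale follows from the range of the values), and the submitters' processing notes name RMA, affy and limma without versions. RMA compresses differences at low levels. A replicate is a pool, so p-values rest on the spread between pools. The limma fit draws each probe set's variance toward that of all probe sets, with 2 residual and 3.74 prior degrees of freedom. An SE can thus exceed the spread of its own gene, as for Igf1 (SE 0.119, SD 0.007 in each genotype). Arrays hold no read depth, and their number limits the precision.

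Of 45101 probe sets, 64 controls were left out. Symbols came from the platform annotation, updated by Entrez number through the RefSeq table of GRCm38.p6 (34741 of 34945 probe sets with 1 symbol). Its positions served only for gene order and promoters, since no build is named for the arrays. The fit across all probe sets used lmFit and eBayes of limma 3.58.1 under R 4.3.3, 2-sided, Benjamini-Hochberg over 45037 probe sets, threshold 0.05. A list gene was its brightest probe set. The lists held 153 genes in 12 lists, of which 132 had a value and the others are not analysed here. Errors given as SE are those of this fit.

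The members and lists were chosen with earlier results of these data known. Named were all Mup probe sets, Smarcd1, list members past the threshold, up to 4 others per list by size, a set of regulators, the 5 closest patterns and the 5 nearest measured genes per side. Alb and Adipoq were named after their values were seen, as checks, and Cftr, Cyp17a1 and Acot3 also after theirs were seen. Tested on simulated data for Baf60a LKO against WT over 45037 probe sets, limma recovered 4.35% of 69 changes of 1, 87.7% of 65 changes of 2 and 98.5% of 66 changes of 4 on the log2 scale, with 7 of 132 calls false. Whether these rates hold for the 4 arrays themselves was not tested. On the arrays the SD of the replicate difference was 0.21 in Baf60a LKO and 0.33 in WT. Alternatives were other normalizations, eBayes settings, filters, probe set rules, a replicate block and leaving out each array. Figures used matplotlib 3.10.9 in Python 3.11.15.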

Additional observations from a re-analysis of the deposited data

How the results depend on the processing

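Mup differences kept their direction under 3 normalizations and without any 1 array. All single-pool differences of each member were negative, so leaving out an array could not turn a sign. The same contrast chose the genes, so these values are a description. Mup10 ran from -4.62 to -4.57 without 1 array and was -4.70 after cyclic loess, the bright Mup3 probe set ran from -3.50 to -2.95, the dim one from -1.35 to -0.63 and Mup5 from -2.81 to -2.26. With both Mup3 probe sets averaged the difference was -2.11, which is not a measured size, since the dim one was at background in Baf60a LKO.

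Counts of calls by limma depended on the setting. Over all probe sets 84 passed, against 139 after quantile normalization, 162 after cyclic loess, 146 with array medians subtracted and 173 with a trended and robust eBayes. With array medians subtracted 78 were higher and 68 lower, with quantiles 67 and 72 and after loess 79 and 83, against 30 and 54 as deposited. Without any 1 array 0 passed (1196 to 10697 at an unadjusted p under 0.05), where fewer degrees of freedom remain. The replicate block left 4 calls over all probe sets and 0 in the lists. The replicate numbers are shared by label only, and replicate 1 minus replicate 2 correlated at 0.147 between the genotypes over probe sets.

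In the lists, 3 genes passed, against 6 after quantiles, loess, in the brighter part of the probe sets or with averaged probe sets, 8 with array medians subtracted, 9 with trended eBayes, 5 without _x_at and _s_at probe sets, and 0 without any 1 array. The male-biased list gave 5 calls under each of these but the last and the block, both 0. The adipocyte list gave 1 (Car3) under all but the last, the block and the _x_at rule. Female-biased calls were 2 with array medians subtracted and 1 with trended eBayes, which also gave 1 secreted protein and 1 lipocalin. Signs turned for Adipoq (0.013 after quantiles, 0.017 after loess), Socs2 (0.010 with array medians subtracted), Hamp2 (-0.14) and Hnf4a (0.36) without _x_at and _s_at probe sets. Without 1 array Bcl6 ran from -0.92 to 0.54, Socs2 from -0.24 to 0.20, Stat5b from -0.15 to 0.017, Zbtb20 from -0.26 to 0.0066, Slc46a2 from -0.17 to 0.28 Zfp37 from -0.0042 to 0.11 and Adipoq from -0.12 to 0.020. Uncalled differences that moved by over 1.5 times were those of Prox1 (0.12 to 0.64 without 1 array), Foxa1 (-0.23) and Stat5a (-0.23) without WT replicate 1, Socs1 (-0.21) without WT replicate 2 and Slc31a1 (-0.23) without Baf60a LKO replicate 1, beside those given with their genes. The cause was not tested.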
